A study of Arabidopsis thaliana with 12 samples.

Results

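Whole rosettes of Arabidopsis thaliana carrying jazDcdk8-1, a mutant that combines the jazD and cdk8-1 mutations, were compared with rosettes of the wild type Col-0 by RNA sequencing, to see which genes stayed changed when the JAZ repressors and CDK8 were lost together. These 2 genotypes account for 6 of the 12 libraries of the series, 3 for each. The contrast covered 19059 of 33323 genes, those with enough reads to test. The other libraries were 3 of the cdk8-1 mutant and 3 of jazD, which combines mutations in 10 of the 13 JAZ genes. Their values stand beside those of jazDcdk8-1 for many of the genes and lists, though not for all. Each library came from its own pool of about 20 plants, taken without roots after 18 days on peat pellets and 7 more on soil, with 16 h of light a day at 20 °C. The labels name 1 genotype for the combined mutant and do not say whether more than 1 plant line was used. They give the wild type and mutants as raised side by side in the same tray. Col-0 and jazDcdk8-1 libraries held 17894260 to 21030374 counts each.

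Jasmonate is a plant hormone of wound and pathogen defense. Its active form, a conjugate with isoleucine, binds the receptor COI1 and leads to the destruction of JAZ proteins, which otherwise hold down MYC and other transcription factors. MYC factors turn on wound-response genes, while the ERF branch, with ORA59, turns on antimicrobial genes such as the plant defensins. CDK8 is a kinase of Mediator, the complex that connects transcription factors to RNA polymerase II.

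The mutated genes were read first, as a check of the labels. CDK8 (chromosome 5, 25463362 to 25465922, RefSeq TAIR10.1) had 17.4, 18.6 and 20.3 CPM (read counts scaled to library size) in Col-0 and 2.73, 3.3 and 3.29 in jazDcdk8-1. The groups were well apart, and CDK8 fell 6.0-fold (log2 change -2.58 ± 0.10 SE, adjusted p = 1.95e-14). Its Mediator partners MED12 (0.01 ± 0.06, adjusted p = 0.875) and MED13 (0.01 ± 0.07, adjusted p = 0.919) gave no call.

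Of 12 tested JAZ genes, 7 fell and 3 rose in jazDcdk8-1. JAZ6 went from 36.8, 33.8 and 29.2 CPM in Col-0 to 1, 1.24 and 1.44, a 26.7-fold fall (adjusted p = 6.01e-17), and was also below jazD (2.99 ± 0.286 CPM, adjusted p = 3.4e-05). JAZ2 fell 6.85-fold and JAZ1 4.79-fold, and JAZ4, below 1 CPM in both genotypes, fell by 2.06 ± 0.52 log2. JAZ5 went from 2.96, 2.51 and 3.7 CPM to 0.89, 0.43 and 0.185 (log2 -2.65 ± 0.31, adjusted p = 8.9e-07; -3.29 without jazDcdk8-1 replicate 1). That level was lower than in jazD (2.48 ± 0.364 CPM, SD, n = 3; adjusted p = 6.07e-06) and in cdk8-1 (2.02 ± 0.232 CPM; adjusted p = 8.59e-05). JAZ3 fell 1.65-fold and JAZ9 1.22-fold, and both were also lower than in each single mutant. JAZ12, one of the genes not mutated in jazD, rose by 0.46 ± 0.06 log2 and JAZ11 was not called (0.08 ± 0.10). JAZ8, from 3-library means under 1 CPM, rose by 1.67 ± 0.55, a call lost without Col-0 replicate 2 (adjusted p = 0.0979) or without jazDcdk8-1 replicate 1 or 3. JAZ10 rose by 0.54 ± 0.20 (adjusted p = 0.0457) and lost its call with DESeq2 (adjusted p = 0.0677), with the replicate block (adjusted p = 0.0584) and without any library of the pair except Col-0 replicate 3. JAZ13 was not called (0.61 ± 0.80), and JAZ7 had 6 counts over the Col-0 group and 1 over jazDcdk8-1, too few to test. Read counts do not show whether a transcript of a mutated gene is intact.

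Over all tested genes 3111 were higher and 3062 lower in jazDcdk8-1, at an adjusted p below 0.05. That is 32.4% of the tested genes, with 16.3% higher and 16.1% lower, the shares against which each gene group below is to be read. Of the same genes 35.8% were called between jazDcdk8-1 and jazD and 24% between jazDcdk8-1 and cdk8-1. Most of these differences were small: 4255 of the called genes (68.9%) changed less than 1.5-fold, 369 rose (1.94% of tested genes) and 521 fell (2.73%) at least 2-fold, and 111 rose (0.582%) and 109 fell (0.572%) at least 4-fold. The 3 libraries of one genotype did not overlap with those of the other for 44.8% of all tested genes, and for 96.8% of the called ones. The even division between higher and lower depended on scaling: 50.4% of the called genes were higher with TMM factors, 60.1% with total counts and 66.8% with limma on log2(TPM + 1). The median change of all tested genes was 0.01 log2 with TMM, 0.05 with total counts and 0.07 with that limma fit.

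**Figure D1:**
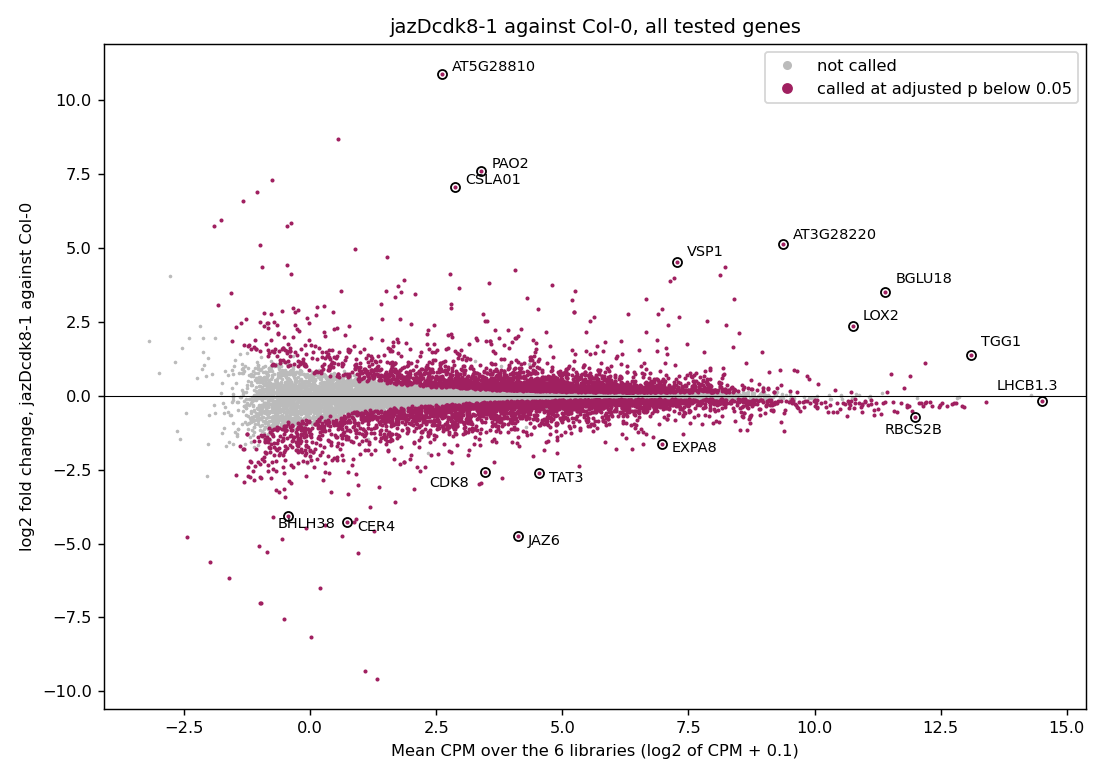
Log2 fold change in jazDcdk8-1 against Col-0 (vertical axis) by mean CPM over the 6 libraries (horizontal axis, log2 of CPM + 0.1), 1 point per tested gene, with called genes in colour and some genes circled and named. Most of the 6173 called genes lie close to 0, and the 111 genes at least 4-fold higher include BGLU18, VSP1 and AT3G28220.

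The tissue label was read from marker genes. The 7 leaf markers summed to 54200 to 58100 CPM in Col-0 and 47800 to 51500 in jazDcdk8-1, while 7 root markers summed to at most 1.0 and 1.72 CPM, with EXPA7 and EXPA18 at 0 counts in both groups. The 3 seed markers summed to at most 0.208 CPM. The 7 flower markers summed to 1.85 to 2.41 CPM in Col-0 and 0.973 to 1.78 in jazDcdk8-1, where AP1 and SEP2 had no counts. In bulk tissue a smaller number of cells of one type and less RNA per cell cannot be told apart.

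Jasmonate synthesis genes stayed raised. Of 13 tested genes 10 rose and none fell, with a median of 0.65 log2, against 1.41 in jazD and -0.05 in cdk8-1. LOX2, the lipoxygenase that starts jasmonate synthesis in the chloroplast, had 565, 573 and 556 CPM in Col-0 and 2883, 2863 and 2936 in jazDcdk8-1. That is a 5.13-fold rise (log2 2.36 ± 0.05, adjusted p = 3.11e-19), from groups far apart, to a level below the 4825 ± 119 CPM of jazD (adjusted p = 4.05e-11). The allene oxide cyclase genes AOC1 and AOC2 rose 6.77-fold and 4.36-fold, the allene oxide synthase gene AOS 2.8-fold and OPR3, a reductase of the peroxisomal part of the pathway, 2.15-fold. In contrast LOX4 was at 8.07 ± 0.41 CPM in Col-0 and 8.33 ± 0.684 in jazDcdk8-1 (log2 0.05 ± 0.11, adjusted p = 0.778), with 32.6 ± 4.28 in jazD and 3.12 ± 0.286 in cdk8-1. LOX3 (0.16 ± 0.06, adjusted p = 0.0712) and JAR1, which joins jasmonate to isoleucine (0.09 ± 0.06), were also not called.

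Among the receptor and transcription factor genes 8 of 10 rose, with a median of 0.50 log2 (0.39 in jazD, 0.09 in cdk8-1). MYC2, the best known MYC factor of the pathway, had 36.2, 41.7 and 41.4 CPM in Col-0 and 99.1, 104 and 114 in jazDcdk8-1, a 2.66-fold rise (adjusted p = 8.64e-13). MYC3 rose 1.54-fold and MYC4 by 0.22 ± 0.06 log2, the latter not called without Col-0 replicate 1 (adjusted p = 0.0719) or jazDcdk8-1 replicate 2 (adjusted p = 0.0744). JAM1, JAM2 and JAM3, bHLH repressors that compete with the MYC factors, rose by 0.88 ± 0.07, 0.53 ± 0.09 and 0.35 ± 0.06, and NINJA, the adaptor of JAZ repression, by 0.47 ± 0.05. COI1 was not called (0.08 ± 0.06), nor was MYC5 (0.99 ± 0.42, adjusted p = 0.0754).

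Genes of jasmonate breakdown were raised in part, 3 of 6 tested, with a median of 0.31 log2 against 2.06 in jazD and -0.94 in cdk8-1. ILL6, an amidohydrolase that splits the isoleucine conjugate, had 8.87, 11.2 and 9.5 CPM in Col-0 and 35.3, 35.1 and 33.0 in jazDcdk8-1 (3.48-fold, adjusted p = 1.57e-13). CYP94B1, which hydroxylates the conjugate, rose by 1.57 ± 0.44 from a level below 1 CPM, and IAR3 rose by 0.24 ± 0.07, a call lost without jazDcdk8-1 replicate 3 (adjusted p = 0.0638). The jasmonate oxidase gene JOX3 (-0.20 ± 0.21, adjusted p = 0.512; 3.42 in jazD) and CYP94C1 (0.13 ± 0.21; 2.07 in jazD) were not called.

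In the MYC branch of the wound response 11 of 16 genes rose and 2 fell, with a median of 1.39 log2 (3.34 in jazD, -1.1 in cdk8-1). VSP2, a vegetative storage protein gene, had 16.8, 17.3 and 18.9 CPM in Col-0 and 267, 262 and 312 in jazDcdk8-1. All 3 mutant libraries were thus far above all wild-type ones, and the rise was 15.9-fold (log2 3.99 ± 0.12, adjusted p = 1.48e-16), to a level below the 1169 ± 28.3 CPM of jazD (adjusted p = 2.76e-13). VSP1 rose 23.3-fold, from 12.7 ± 1.03 to 296.7 ± 58.9 CPM.

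MBP1, a myrosinase-binding protein gene, went from 32.3, 24.1 and 26.8 CPM in Col-0 to 575, 567 and 565 in jazDcdk8-1, a 20.5-fold rise (adjusted p = 8.1e-20), with 904 ± 33.6 CPM in jazD and 18.9 ± 2.72 in cdk8-1. CORI3, a cystine lyase gene induced by coronatine, rose 5.22-fold to 506 ± 5.15 CPM, the chlorophyllase gene CLH1 by 1.76 ± 0.05 log2 and the jacalin lectin gene JR1 by 1.41 ± 0.06. NATA1, an acetyltransferase gene, was 2.83-fold above Col-0 at 10.7 ± 1.49 CPM, where jazD had 251 ± 3.44, and was not called with DESeq2 (adjusted p = 0.0614). The 3 NAC genes of the list were not called: NAC019 (0.57 ± 0.24, adjusted p = 0.0726), NAC055 (0.38 ± 0.40) and NAC072 (-0.26 ± 0.19).

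Both genes for myrosinases, the enzymes that break glucosinolates in damaged tissue, rose. TGG1 had 4991, 4627 and 5107 CPM in Col-0 and 12470, 13230 and 12350 in jazDcdk8-1 (2.58-fold, adjusted p = 1.27e-14). That was above jazD (7329 ± 283 CPM, adjusted p = 8.38e-11) and above cdk8-1 (6316 ± 182 CPM, adjusted p = 2.72e-12). TGG2 rose 1.59-fold to 4637 ± 80 CPM, with 5089 ± 349 in jazD, from which it was not called different (adjusted p = 0.0673), and 1025 ± 63.8 in cdk8-1.

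The members of the MYC list that fell were TAT3, a tyrosine aminotransferase gene, and TPS04, which makes the geranyllinalool precursor of a leaf homoterpene. TAT3 had 33.4, 34.0 and 51.6 CPM in Col-0 and 6.01, 4.31 and 8.94 in jazDcdk8-1 (log2 -2.62 ± 0.28, adjusted p = 2.55e-07). Its level in cdk8-1 was 7.51 ± 4.33 CPM, from which jazDcdk8-1 was not called different (adjusted p = 0.693), and in jazD it was 33.8 ± 11.1. TPS04 fell by 2.41 ± 0.29 log2 (-3.23 without jazDcdk8-1 replicate 3), from 8.01 ± 1.53 to 1.47 ± 1.06 CPM, with 0.936 ± 0.522 in cdk8-1 and 9.24 ± 1.27 in jazD.

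ER bodies, compartments of the endoplasmic reticulum that hold defensive beta-glucosidases, were among the raised groups: 9 of 10 tested genes rose and none fell, with a median of 2.61 log2 (3.30 in jazD, 0.27 in cdk8-1). NAI1, the bHLH factor needed to form ER bodies, went from 1.76, 2.21 and 1.6 CPM in Col-0 to 7.18, 8.37 and 8.24 in jazDcdk8-1 (4.27-fold, adjusted p = 1.4e-09). The structural gene NAI2 rose 5.77-fold and its homologue TSA1 9.68-fold, to 612 ± 36.3 CPM. BGLU18, the beta-glucosidase of ER bodies in rosette leaves, had 467, 413 and 434 CPM in Col-0 and 4855, 4789 and 5303 in jazDcdk8-1, an 11.4-fold rise (adjusted p = 2.31e-20). The jazD level of BGLU18 was 7514 ± 86.8 CPM, above that of jazDcdk8-1 (adjusted p = 1.54e-08).

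PYK10, a second beta-glucosidase gene of the list, rose 6.42-fold, with a level in jazDcdk8-1 (275 ± 8.3 CPM) between those of cdk8-1 (113 ± 5.95) and jazD (395 ± 38.9). The genes MEB1 and MEB2, for membrane proteins of ER bodies, rose by 2.94 ± 0.10 and 1.63 ± 0.23 log2, and the lectin gene PBP1 by 2.38 ± 0.06. JAL22, a jacalin lectin gene, went from 5.24, 5.87 and 6.65 CPM to 75.5, 69.5 and 65.2, which was above jazD (41.5 ± 4.14 CPM, adjusted p = 2.23e-07) and cdk8-1 (21.3 ± 2.99 CPM, adjusted p = 2.47e-12). BGLU22 was not called (0.89 ± 0.57), and BGLU21 had no counts.

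**Figure D2:**
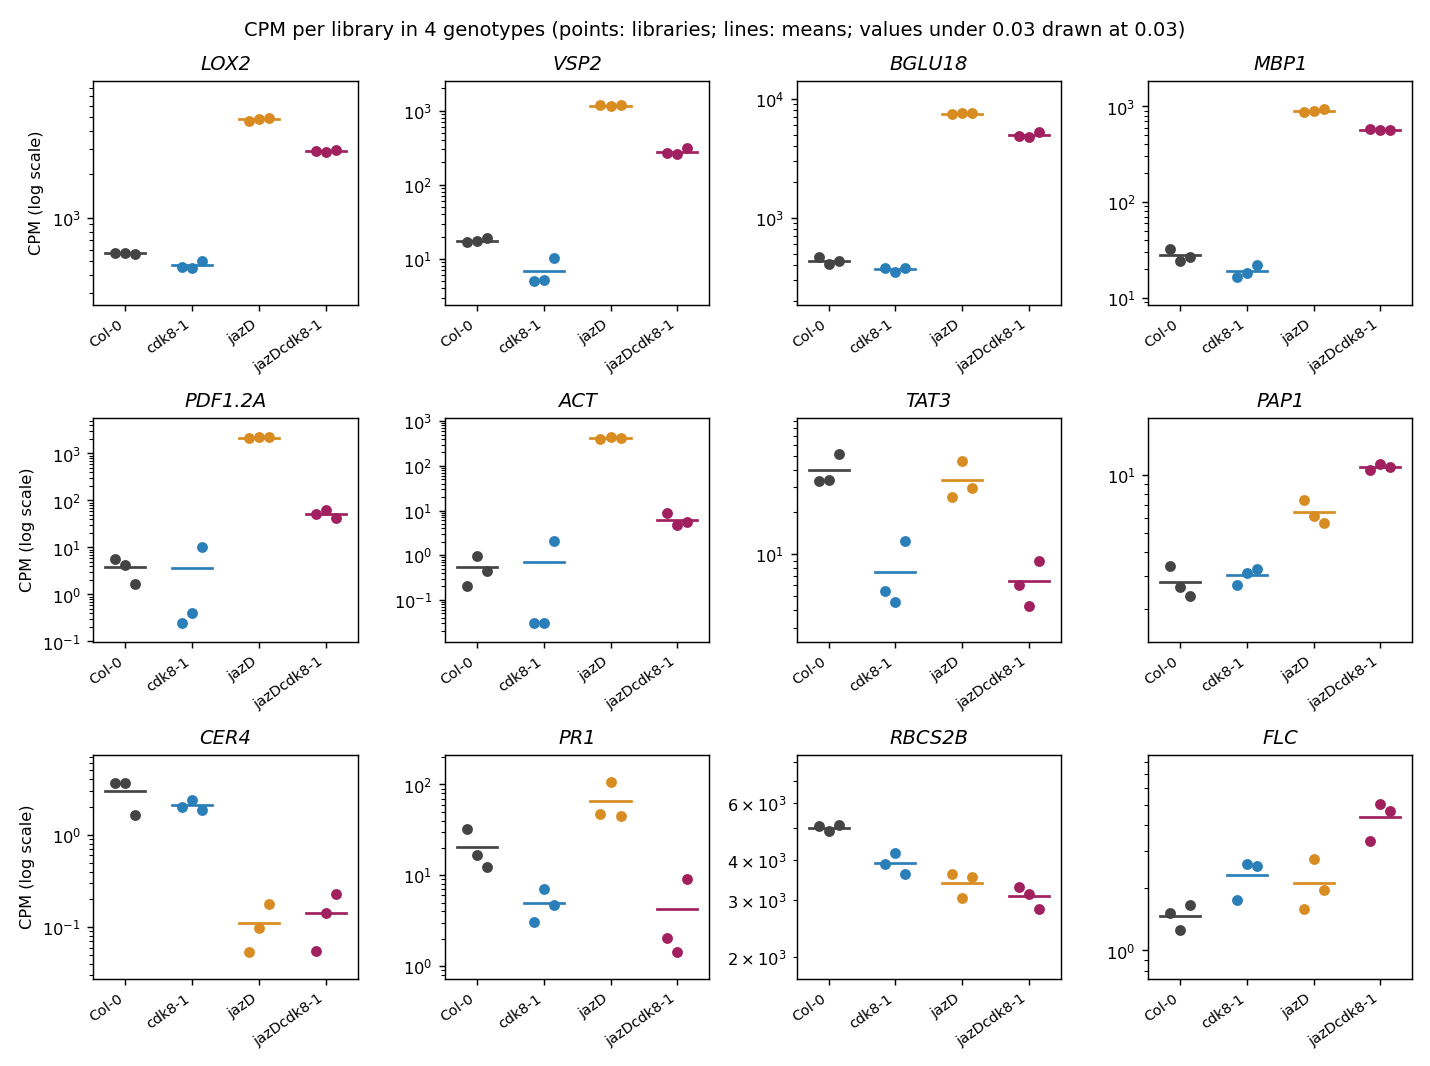
CPM per library (vertical axis, log scale) of 12 named genes in the 4 genotypes (horizontal axis), with points for libraries and lines for means of 3; values close to 0 are drawn at the lower bound given in the title. BGLU18, MBP1 and LOX2 in jazDcdk8-1 sit closer to jazD than to Col-0, PDF1.2A and ACT sit far below jazD, and TAT3 and PR1 overlap with cdk8-1.

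ERF-branch genes were also above wild type, 9 of 10 tested, with a median of 2.39 log2 against 5.56 in jazD and -0.05 in cdk8-1. ORA59, the ERF factor that heads this branch, had 1.51, 1.05 and 0.80 CPM in Col-0 and 13.9, 13.8 and 14.5 in jazDcdk8-1. The groups were far apart (12.6-fold, adjusted p = 5.6e-14), and jazD was at 52.7 ± 4.5 CPM. The defensin gene PDF1.2A had 5.66, 4.22 and 1.65 CPM in Col-0 and 50.6, 62.3 and 41.6 in jazDcdk8-1 (13.5-fold, log2 3.75 ± 0.41, adjusted p = 3.93e-07). Its level in jazD was 2179 ± 76.6 CPM (jazDcdk8-1 against jazD, log2 -5.40 ± 0.29, adjusted p = 3.48e-12). PDF1.2B, PDF1.2C and PDF1.3 rose by 2.60 ± 0.53, 3.45 ± 0.57 and 3.83 ± 0.64. How reads were divided among these defensin genes, which are nearly the same in sequence, is uncertain. PR4, for a chitin-binding defense protein, rose 4.49-fold to 165 ± 7.48 CPM, ERF2 3.74-fold and the thionin gene THI2.1 3.27-fold, from 0.388 ± 0.0216 CPM. The chitinase gene PR3 stood at 3.98 ± 0.17 CPM in Col-0 and 4.16 ± 0.433 in jazDcdk8-1 (adjusted p = 0.795), where jazD had 54.4 ± 8.99. With DESeq2 5 members rose, 3 defensin genes, PDF1.2A among them, received no adjusted p, and PDF1.2B was not called (adjusted p = 0.0986). PDF1.2B was also not called with limma on log2(TPM + 0.1) (adjusted p = 0.129).

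Coumaroylagmatine, an antifungal amide, is made by the acyltransferase ACT. ACT had 0.208, 0.953 and 0.45 CPM in Col-0 and 8.73, 4.64 and 5.47 in jazDcdk8-1 (11.3-fold, log2 3.50 ± 0.52, adjusted p = 2.21e-05, or 4.20 without Col-0 replicate 2), with 422 ± 25 CPM in jazD. The arginine decarboxylase gene ADC1, which feeds agmatine, rose 1.58-fold and ADC2 was not called (-0.06 ± 0.04). Libraries within cdk8-1 were uneven for these genes, with 5, 8 and 212 counts of PDF1.2A and 0, 0 and 44 of ACT in replicates 1 to 3, so the cdk8-1 means beside them rest on replicate 3.

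Promoter sequence is shown for 4 of these genes, which differ in how far jazDcdk8-1 stayed above wild type and below jazD. All 4 sequences shown hold a match to an element named next. Each is the 250 bases before the annotated start, read from the RefSeq TAIR10.1 genome on the strand of the gene, with the GCC-box GCCGCC, the element bound by ERF factors, and the G-box CACGTG, bound by MYC factors, in capitals where a search of both strands found them. In PDF1.2A (chr5:17907639-17907888, minus strand) a GCC-box begins 222 bases before the start. ORA59 (chr1:1882657-1882906, plus strand) has a GCC-box at 230 and a G-box at 194 bases, which do not overlap. ACT (chr5:24608355-24608604, plus strand) holds a pair of GCC-boxes at 21 and 13 bases. MBP1 (chr1:19352792-19353041, minus strand) holds a G-box at 105 bases.
PDF1.2A: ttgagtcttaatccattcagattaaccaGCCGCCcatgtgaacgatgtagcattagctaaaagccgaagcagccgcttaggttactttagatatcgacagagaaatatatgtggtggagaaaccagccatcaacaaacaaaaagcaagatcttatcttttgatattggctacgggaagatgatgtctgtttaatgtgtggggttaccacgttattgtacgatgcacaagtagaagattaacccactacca
ORA59: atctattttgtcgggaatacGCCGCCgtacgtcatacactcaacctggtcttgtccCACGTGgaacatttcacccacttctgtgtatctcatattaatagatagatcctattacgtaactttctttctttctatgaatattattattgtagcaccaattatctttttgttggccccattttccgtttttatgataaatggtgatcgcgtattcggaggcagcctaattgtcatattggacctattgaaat
ACT: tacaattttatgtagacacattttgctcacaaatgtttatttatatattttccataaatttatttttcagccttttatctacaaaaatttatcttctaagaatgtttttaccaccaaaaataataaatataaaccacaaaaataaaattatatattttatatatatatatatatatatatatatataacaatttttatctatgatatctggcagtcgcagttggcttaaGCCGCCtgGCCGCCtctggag
MBP1: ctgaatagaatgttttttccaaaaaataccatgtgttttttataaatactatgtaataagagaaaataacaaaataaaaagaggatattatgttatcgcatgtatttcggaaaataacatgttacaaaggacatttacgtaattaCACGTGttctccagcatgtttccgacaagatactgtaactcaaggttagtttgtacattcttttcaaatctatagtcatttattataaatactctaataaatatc
Of 18495 such windows of tested genes, 1.92% held the GCC-box and 7.37% the G-box. Over 27443 windows of all protein-coding genes the shares were 1.87% and 6.49%. The list windows include members that were not tested. In the ERF branch 3 of 12 windows held the GCC-box (ORA59 and the closely similar genes PDF1.2A and PDF1.2B) and 2 the G-box. The G-box stood in 2 of 16 windows of the MYC branch (MBP1 and NAC019), in 1 of 11 of ER bodies (NAI2) and in 2 of 14 of jasmonate synthesis (ACX1 and AOS), and none of these held a GCC-box. A match is a description of these letters only. The windows of VSP1, VSP2, LOX2, BGLU18, TSA1, AOC1, PDF1.3, PR1 and MYC2 held neither element.

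Tryptophan supplies indole defense compounds, and 5 of 10 genes of its synthesis rose and 1 fell (median 0.36 log2; 1.12 in jazD, -0.07 in cdk8-1). The gene that fell, ASA2, did so by 0.17 ± 0.06 (adjusted p = 0.0488), a call lost with total counts, with DESeq2, with both limma fits, with the replicate block and without any library of the pair except jazDcdk8-1 replicate 2. TRP1 and TSB1 rose 1.72-fold and 1.40-fold and TRP3 by 0.58 ± 0.06 log2. PAI2, a copy of a nearly identical gene pair whose reads are hard to divide, rose 3.31-fold, while PAI1 was not called (-0.20 ± 0.09). ASA1, the entry enzyme, had 37.1, 42.2 and 33.2 CPM in Col-0 and 38.8, 40.1 and 37.8 in jazDcdk8-1. These groups overlap (log2 0.05 ± 0.08, adjusted p = 0.649), and jazD was at 83.4 ± 7.42 CPM. In the phosphorylated serine pathway PSAT1 rose 1.55-fold, PGDH2 rose by 0.32 ± 0.09 and PGDH3 fell by 0.25 ± 0.05 log2, with the other 3 members not called. Of 11 shikimate pathway genes 3 rose and 1 fell, led by the chorismate mutase gene CM3 (0.59 ± 0.07). The gene that fell, CM1, lost its call with total counts, with both limma fits and without Col-0 replicate 2. EMB1144, which rose, lost its call with DESeq2 (adjusted p = 0.0622) and without Col-0 replicate 3 or jazDcdk8-1 replicate 2 or 3.

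Indole glucosinolate genes were mixed, with 11 of 18 higher and 4 lower and a median of 0.36 log2 (1.04 in jazD, -0.23 in cdk8-1). CYP79B2 and CYP79B3, which turn tryptophan into its aldoxime, rose 1.86-fold and 2.11-fold. CYP79B2 had 41.3, 43.8 and 40.3 CPM in Col-0 and 71.5, 79.0 and 81.9 in jazDcdk8-1 and was not called different from jazD (84.2 ± 6.7 CPM, adjusted p = 0.148). The methyltransferase gene IGMT5 rose 3.37-fold to 18.4 ± 0.763 CPM, with 112 ± 4.42 in jazD. The ring-modifying genes split: CYP81F1 rose 2.05-fold, to a level above jazD (adjusted p = 1.03e-06) and cdk8-1 (adjusted p = 7.81e-07), CYP81F3 fell 2.07-fold and CYP81F2 was not called (-0.49 ± 0.24, adjusted p = 0.128). MYB51, an activator of the pathway, fell by 0.46 ± 0.14 (1.70 in jazD). The MYB51 call was lost without Col-0 replicate 2 (adjusted p = 0.0527) and with limma on log2(TPM + 1) (adjusted p = 0.0513). SUR1 and UGT74B1, shared with methionine-derived glucosinolates, fell by 0.46 ± 0.04 and 0.61 ± 0.05.

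Methionine-derived (aliphatic) glucosinolate genes showed no common direction: 7 of 22 rose and 9 fell, with a median of -0.07 (-0.42 in jazD, -0.21 in cdk8-1) that was 0.0 with limma on TPM. MAM3, a chain-elongation synthase gene, had 22.7, 25.3 and 19.3 CPM in Col-0 and 33.7, 43.3 and 42.0 in jazDcdk8-1 (1.77-fold, adjusted p = 6.55e-07), where cdk8-1 had 42.6 ± 2.32 and jazD 12.6 ± 1.39. IPMI2 rose by 0.57 ± 0.05 and SOT18 by 0.42 ± 0.05. CYP83A1, which oxidises aliphatic aldoximes, fell 1.61-fold, to 219 ± 4.27 CPM beside 224 ± 8.42 in cdk8-1 (adjusted p = 0.697 between them), and GSTF11 and CYP79F2 fell by 0.76 ± 0.11 and 0.70 ± 0.13. MYB28, a regulator of this pathway, was not called (0.04 ± 0.05).

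Anthocyanin genes rose together with their activator. Of 20 tested flavonoid and anthocyanin genes 15 rose and 1 fell, by a median of 0.92 log2 (0.87 in jazD, 0.64 in cdk8-1). PAP1, the MYB activator of anthocyanin synthesis, had 3.37, 2.61 and 2.35 CPM in Col-0 and 10.6, 11.5 and 11.1 in jazDcdk8-1. The groups were separate (3.99-fold, adjusted p = 2.54e-10), and jazDcdk8-1 was above jazD (6.41 ± 0.946 CPM, adjusted p = 2.16e-05) and cdk8-1 (3.02 ± 0.294 CPM, adjusted p = 7.04e-10). Late-pathway genes rose: DFR 4.48-fold, LDOX 3.86-fold and the glycosyltransferase gene UGT79B1 4.64-fold, each to a level below that of jazD. Chalcone synthase (CHS), the first step, rose by 0.70 ± 0.05 log2. The flavonol synthase gene FLS1 rose 1.98-fold, from 18.6 ± 0.533 to 36.7 ± 1.01 CPM, with 53.2 ± 2.9 in cdk8-1 and 18.4 ± 1.49 in jazD, and its regulator MYB111 rose 1.82-fold. The member that fell was MYBL2, a repressor of anthocyanin genes, from 130, 122 and 134 CPM to 64.6, 60.3 and 53.5 (2.16-fold, adjusted p = 5.17e-12), near cdk8-1 (60.7 ± 1.66 CPM, adjusted p = 0.76).

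**Figure D3:**
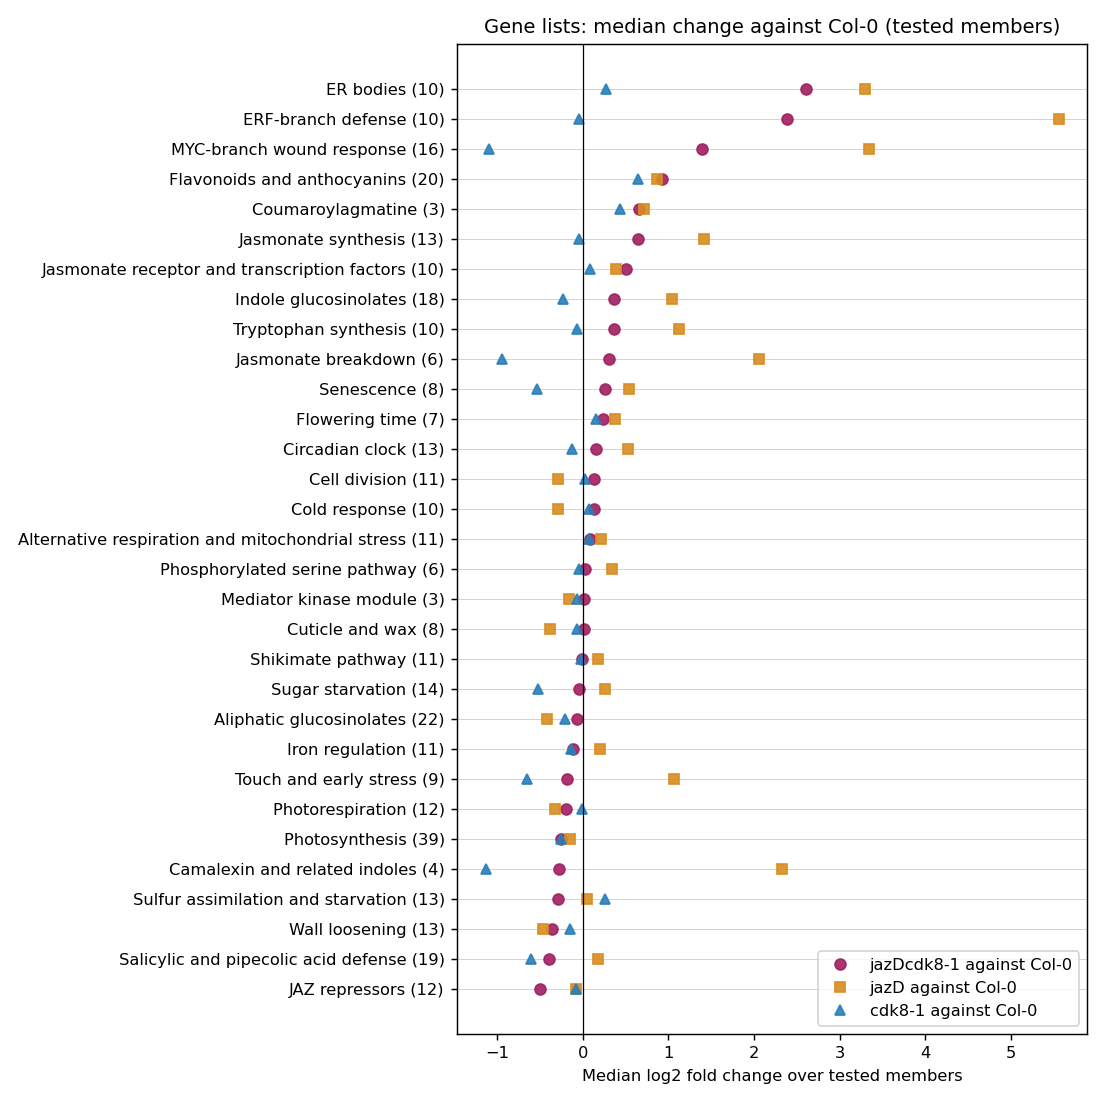
Median log2 fold change against Col-0 over the tested members of each gene list (horizontal axis; list and number of tested members on the vertical axis) in jazDcdk8-1 (circles), jazD (squares) and cdk8-1 (triangles), 3 comparisons that share the Col-0 libraries. In jazDcdk8-1 the medians run from -0.50 for JAZ repressors to 2.61 for ER bodies, and the median of all tested genes is 0.01. The JAZ list holds the 10 genes that are themselves mutated in jazD.

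Salicylic acid and pipecolic acid defense, which act against pathogens that feed on living tissue, went lower in part: 8 of 19 genes fell and 2 rose, with a median of -0.39 log2 (0.18 in jazD, -0.61 in cdk8-1). ALD1, of pipecolic acid synthesis, had 1.61, 2.21 and 2.95 CPM in Col-0 and 0.111, 0.191 and 0.371 in jazDcdk8-1 (log2 -3.26 ± 0.43, adjusted p = 4.29e-06). PR1, the usual marker of salicylic acid signalling, had 32.5, 16.6 and 12.4 CPM in Col-0 and 2.06, 1.44 and 9.17 in jazDcdk8-1 (log2 -2.23 ± 0.48, adjusted p = 0.0011), or -3.57 without jazDcdk8-1 replicate 3. The libraries of each genotype were spread widely, with 66.3 ± 34.2 CPM in jazD and 4.91 ± 2.01 in cdk8-1. The factor genes WRKY38, SARD1 and WRKY70 fell by 1.89 ± 0.63, 0.99 ± 0.26 and 0.58 ± 0.13 log2, and NIMIN1 by 1.73 ± 0.50. The WRKY38 call was lost without Col-0 replicate 3 (adjusted p = 0.0965) and without jazDcdk8-1 replicate 1 or 2, and its change was -2.68 without jazDcdk8-1 replicate 3. NIMIN1 lost its call without Col-0 replicate 2 (adjusted p = 0.0675). ICS1, the synthesis enzyme of salicylic acid (-0.23 ± 0.10, adjusted p = 0.0843), and NPR1, its receptor (-0.02 ± 0.07), were not called. PR2 fell 2.15-fold, a call lost without Col-0 replicate 1 (adjusted p = 0.149) and without jazDcdk8-1 replicate 2 (adjusted p = 0.0857). The PR2 call was also lost with DESeq2 (adjusted p = 0.0918) and with both limma fits (adjusted p = 0.0597 and 0.0606).

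The 4 tested camalexin and related genes split evenly. CYP71A13 went from 4.31, 3.71 and 3.05 CPM to 0.723, 0.67 and 1.67 (log2 -1.82 ± 0.46, adjusted p = 0.004), and PAD3, the last enzyme of camalexin synthesis, fell by 1.29 ± 0.44 (log2 -2.03 without jazDcdk8-1 replicate 3), where jazD had 22.9 ± 12.4 CPM. PAD3 was not called without Col-0 replicate 2 or 3, without jazDcdk8-1 replicate 1 or 2 (adjusted p = 0.147 without replicate 2, the highest) and with DESeq2. GSTF6 rose 2.52-fold and CYP71A12 by 0.73 ± 0.25, the latter not called without Col-0 replicate 2 or 3 or jazDcdk8-1 replicate 1 or 3.

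Early-stress genes, which respond to touch and harvest within minutes, were lower or not called except for TCH4: 3 of 9 fell and 1 rose, with a median of -0.19 log2 (1.06 in jazD, -0.65 in cdk8-1). TCH3, a calmodulin-like gene, had 73.8, 92.6 and 74.0 CPM in Col-0 and 40.9, 37.4 and 45.0 in jazDcdk8-1 (1.95-fold lower, adjusted p = 2.9e-06). WRKY40 fell by 1.55 ± 0.33 and WRKY33 by 0.46 ± 0.12. TCH4 rose by 0.55 ± 0.17, a call lost with DESeq2 (adjusted p = 0.113) and without Col-0 replicate 1 or 3 or jazDcdk8-1 replicate 1. The part that harvest stress had in the defense genes above was not tested.

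Most photosynthesis genes were slightly lower: 32 of 39 fell and none rose, with a median of -0.25 log2 (-0.15 in jazD, -0.25 in cdk8-1). The count was 27 with limma on log2(TPM + 1), with a median of -0.17. RBCS2B, a small subunit of Rubisco, had 5089, 4900 and 5105 CPM in Col-0 and 3286, 3134 and 2823 in jazDcdk8-1, without overlap (1.63-fold lower, adjusted p = 3.21e-08). RBCS1A, another small subunit gene, ran from 18070 to 21460 CPM in Col-0 and from 19240 to 20790 in jazDcdk8-1 and was not called (0.02 ± 0.07). Reads of these related genes may be divided unevenly. RCA, the activase of Rubisco, fell 1.28-fold and the carbonic anhydrase gene CA1 1.42-fold, to 6762 ± 246 and 2536 ± 79.8 CPM. Both were above jazD (5320 ± 222 CPM, adjusted p = 5.93e-06, and 2084 ± 113 CPM, adjusted p = 0.000129). The light-harvesting gene LHCB1.3 fell by 0.19 ± 0.06, a call lost without jazDcdk8-1 replicate 3 (adjusted p = 0.0637) and with both limma fits. The photosystem I genes PSAE1 and PSAF fell by 0.54 ± 0.07 and 0.52 ± 0.05.

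Photorespiration, which recovers carbon from the oxygenase product of Rubisco, followed with 10 of 12 genes lower and 1 higher, by a median of -0.20 log2. The aminotransferase gene GGT1 fell 1.45-fold, from 1653 ± 76 to 1138 ± 37.3 CPM, and the peroxisomal catalase gene CAT2 1.41-fold, with CAT2 above jazD (433 ± 30.9 CPM, adjusted p = 1.69e-06). GLDH1, a glycine decarboxylase subunit gene, rose by 0.29 ± 0.06. Protochlorophyllide oxidoreductase A (PORA) is a light-dependent enzyme of chlorophyll synthesis. PORA went from 71.3, 56.0 and 75.1 CPM to 12.9, 12.7 and 13.1 (5.23-fold lower, adjusted p = 5.98e-13), near its level in jazD (11.8 ± 1.03 CPM, adjusted p = 0.468).

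Wall-loosening genes of cell expansion were mostly lower, 9 of 13, with 2 higher and a median of -0.36 log2 (-0.46 in jazD, -0.15 in cdk8-1). The expansin gene EXPA8 had 192, 183 and 193 CPM in Col-0 and 63.2, 64.4 and 57.0 in jazDcdk8-1 (3.08-fold lower, adjusted p = 1.85e-14). That was below both jazD (85.6 ± 8.27 CPM, adjusted p = 5.09e-06) and cdk8-1 (94.9 ± 5.11 CPM, adjusted p = 1.84e-07). EXPA11 fell 2.38-fold and XTH7, a xyloglucan-modifying enzyme gene, 1.89-fold. XTH24 went the other way, from 65.3, 69.6 and 59.5 CPM to 197, 196 and 207 (3.09-fold, adjusted p = 9.75e-15), above jazD (105 ± 1.36 CPM, adjusted p = 5.06e-11) and cdk8-1 (123 ± 11.1 CPM, adjusted p = 6.98e-09). Cell division genes were mostly not called, with 1 of 11 higher (CDKB1;1, 0.50 ± 0.13) and 1 lower (CYCA1;1, by 0.30 ± 0.10). The CYCA1;1 call was lost with DESeq2, with both limma fits and without each of 3 libraries.

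Among 8 tested cuticle and wax genes 3 rose and 3 fell. CER4, which makes the alcohols of leaf wax, was counted 71, 72 and 33 times in Col-0 and 1, 3 and 5 times in jazDcdk8-1 (log2 -4.27 ± 0.42, adjusted p = 6.62e-08), with 6 counts over the jazD group. WSD1, which joins those alcohols into wax esters, fell 3.94-fold. CER1 and CER3 act together in alkane synthesis and moved apart: CER1 fell 1.94-fold, from 113 ± 18.1 to 58.1 ± 2.31 CPM, and CER3 rose 1.73-fold, from 56.8 ± 2.45 to 98.4 ± 3.5. CER3 was at 89.9 ± 4 CPM in cdk8-1 and 49.95 ± 0.638 in jazD.

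**Figure D4:**
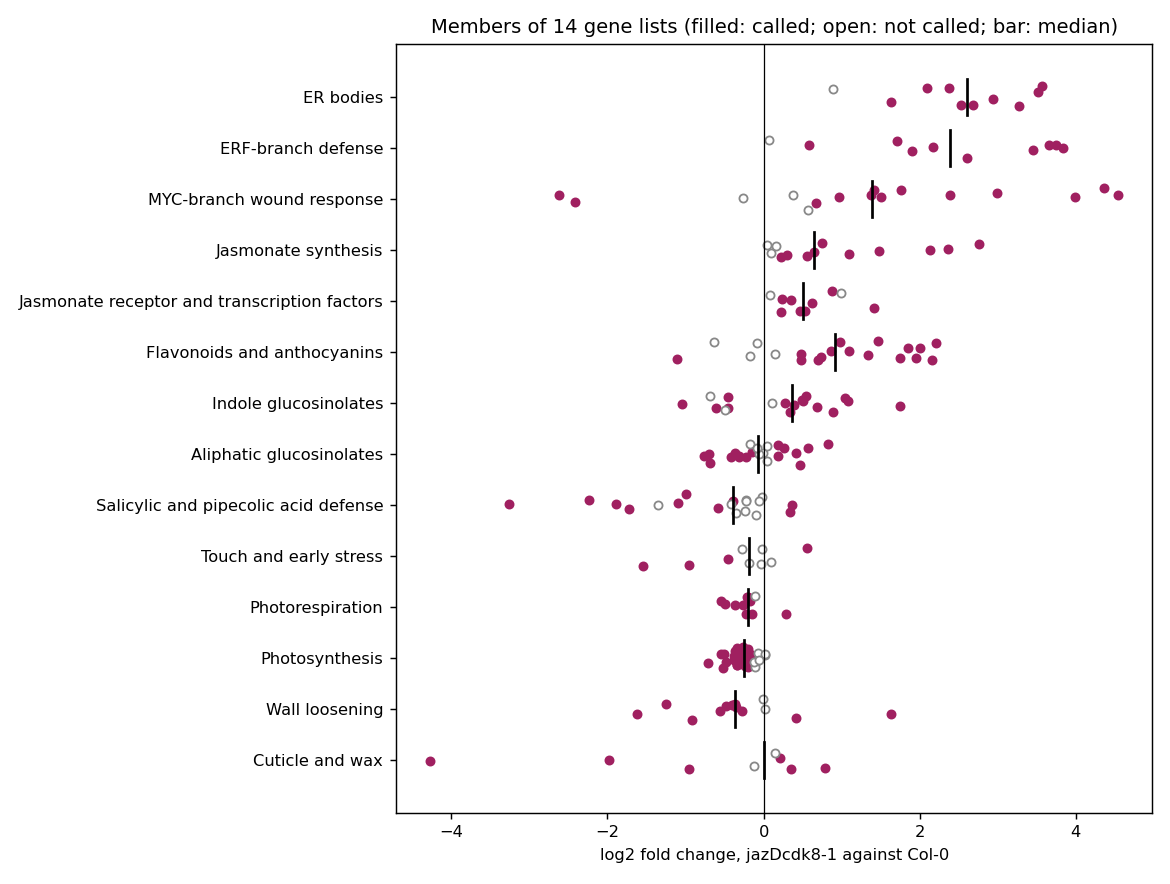
Log2 fold change in jazDcdk8-1 against Col-0 (horizontal axis) of each tested member of 14 gene lists (vertical axis), filled where called and open where not, with a bar at the list median. The ER body and ERF-branch members lie to the right of 0, nearly all photosynthesis members in a narrow band to its left, and the aliphatic glucosinolate members on both sides.

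Clock genes were called in both directions, with 6 of 13 higher and 5 lower. Among these, the calls of PRR5, PRR7, GI and RVE1 were each lost in some alternative, that of PRR5 with DESeq2 (adjusted p = 0.208). The morning factors CCA1 and LHY fell by 1.32 ± 0.07 and 0.90 ± 0.12 log2, and PRR9 by 1.28 ± 0.07. CCA1 had 47.9, 45.3 and 40.2 CPM in Col-0 and 18.4, 18.0 and 17 in jazDcdk8-1, against 14.9 ± 1.24 in jazD and 40.8 ± 0.982 in cdk8-1. PRR3 rose 3.87-fold and the evening-complex genes ELF3 and LUX by 0.60 ± 0.06 and 0.57 ± 0.08 log2, while ELF4 was not called (0.19 ± 0.19). The labels give no time of day for the harvest.

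Of 7 tested flowering-time genes 4 rose and 1 fell, with a median of 0.24 log2. FLC, which represses flowering until a long cold period has passed, had 1.51, 1.25 and 1.65 CPM in Col-0 and 3.34, 5.02 and 4.68 in jazDcdk8-1 (2.97-fold, adjusted p = 1.13e-05). This was above jazD (2.1 ± 0.599 CPM, adjusted p = 0.000523) and above cdk8-1 (2.29 ± 0.473 CPM, adjusted p = 0.002). Its relatives MAF5 and MAF4 rose 6.01-fold and 2.37-fold and FLM by 0.24 ± 0.07 log2. FLM was not called when Col-0 replicate 3 was left out (adjusted p = 0.0549). The repressor gene SVP was not called (-0.06 ± 0.05), and SOC1, a flowering activator, fell 1.22-fold. The floral marker sums given above were lower in the same libraries, and AP1 had 0, 4 and 6 counts in Col-0 and none in jazDcdk8-1. The part of floral tissue in these values was not tested.

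In iron regulation 3 of 11 genes fell and 1 rose, or 3 and 3 with limma on TPM. FER1, an iron-storing ferritin gene, had 137, 154 and 118 CPM in Col-0 and 56.2, 64.7 and 54.3 in jazDcdk8-1 (2.33-fold lower, adjusted p = 4.9e-09), where cdk8-1 had 49.2 ± 8.91 and jazD 201 ± 10.3. BHLH38, a regulator of iron uptake, had 12, 33 and 27 counts in Col-0 and 0, 2 and 2 in jazDcdk8-1 (log2 -4.07 ± 0.62). In sulfur assimilation 3 of 13 genes rose and 5 fell, a number that was 3 with total counts, DESeq2 and limma on log2(TPM + 1). APR1, an APS reductase gene, went from 56.7, 61.5 and 56.2 CPM to 30.0, 33.2 and 30.1 (1.87-fold lower, adjusted p = 2.63e-10), below jazD (48.9 ± 2.38 CPM, adjusted p = 3.83e-08) and cdk8-1 (57.4 ± 3.32 CPM, adjusted p = 4.96e-10), whereas APR3 rose 1.49-fold.

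Cold-response genes divided into 5 higher and 4 lower of 10. COR15A, COR15B and COR47, which protect cells in frost, rose by 0.55 ± 0.09, 0.57 ± 0.11 and 0.57 ± 0.05 log2, and CBF1 and CBF3, the factors that act on them, fell by 1.19 ± 0.32 and 0.48 ± 0.14. The CBF3 call was lost without Col-0 replicate 2 (adjusted p = 0.0597) or 3 (adjusted p = 0.107) and with both limma fits. KIN1 and KIN2, a pair of similar genes whose reads are hard to divide, rose by 2.28 ± 0.39 and 0.72 ± 0.10. GOLS3, a galactinol synthase gene, had 18.1, 15.4 and 20.5 CPM in Col-0 and 2.45, 2.01 and 2.36 in jazDcdk8-1 (7.92-fold lower, adjusted p = 3.29e-12), below jazD (7 ± 1.64 CPM, adjusted p = 3.69e-07) and cdk8-1 (10.3 ± 0.445 CPM, adjusted p = 2.46e-09). Sugar-starvation genes gave 3 higher and 5 lower of 14, the latter 3 with total counts and limma. Among them BGAL4 rose by 0.94 ± 0.10 and SEN1 fell by 0.87 ± 0.13, and DIN11, at 7.04 log2 in jazD, was not called (-0.08 ± 0.45). In senescence 2 of 8 genes rose and 2 fell. NAP, a NAC factor of leaf senescence, fell 3.07-fold and NYC1, of chlorophyll breakdown, rose by 0.56 ± 0.05. In alternative respiration 4 of 11 rose and 3 fell: the alternative oxidase gene AOX1A rose 1.23-fold, from 39.6 ± 1.99 to 48.7 ± 1.27 CPM, AOX1C by 1.27 ± 0.31 log2 and UPOX, a marker of oxidative stress, by 0.79 ± 0.17. The dicarboxylate carrier gene DIC2 fell by 1.06 ± 0.25, with 4.51 CPM in Col-0 replicate 1 inside the range of jazDcdk8-1, and OM66, an outer mitochondrial membrane gene of stress responses, fell 1.66-fold.

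Outside the lists, the genes with the greatest log2 changes among those at 5 CPM or more in the higher genotype were also read per library. AT5G28810, annotated only with a domain of unknown function, had 0 counts in all 3 Col-0 libraries and 222, 227 and 278 in jazDcdk8-1, so at least 237-fold higher when 3 counts are taken as the limit of the wild-type group, with 534, 599 and 549 in jazD. CSLA01, a cellulose synthase-like gene, had 3, 3 and 0 counts in Col-0 and 272, 254 and 336 in jazDcdk8-1 (log2 7.05 ± 0.32). AT3G28220, a TRAF-like family gene, rose from 35.5, 35.3 and 39.7 CPM to 1243, 1226 and 1384 (34.9-fold, adjusted p = 6.01e-17), with 2123 ± 40.4 in jazD. The factor gene MYB47 rose 18.9-fold, to 31.4 ± 1.24 CPM and was not called different from jazD (34.6 ± 0.541 CPM, adjusted p = 0.131).

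AT1G52000, a mannose-binding lectin gene close to MBP1 on chromosome 1, had 37.2, 26.4 and 29.6 CPM in Col-0 and 537, 522 and 520 in jazDcdk8-1 (log2 4.08 ± 0.10, adjusted p = 1.09e-17). It was above its jazD level (399 ± 15.3 CPM, adjusted p = 0.000805). LAS1, the lanosterol synthase gene, rose 14.9-fold to 6.6 ± 0.824 CPM. AT1G14120 and AT3G20370, 2 more genes of this rank, rose by 4.68 and 4.12 log2. Measured as a difference in CPM, TGG1, BGLU18, AT1G20620 (catalase 3) and LOX2 added most: AT1G20620 went from 3045, 2980 and 2929 CPM to 6257, 6607 and 6378 (2.15-fold, adjusted p = 4.63e-14). The peroxidase gene PRXR1 rose 1.65-fold and the thiazole synthesis gene THI1 by 0.26 ± 0.05 log2.

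At the low end of the same ranking, besides CDK8, JAZ6 and JAZ2, stood TRM24, a gene of unknown function in the authors' annotation, which went from 5.76, 5.72 and 5.75 CPM to 0.667, 0.526 and 0.232 (12.2-fold lower, adjusted p = 3.53e-10). It was at 0.318 ± 0.197 CPM in jazD and 11.6 ± 1.75 in cdk8-1. AT4G01390, a TRAF-like family gene, fell 8.92-fold, from 7.28 ± 0.333 to 0.814 ± 0.202 CPM, and was at 9.17 ± 0.537 in jazD and 0.132 ± 0.0747 in cdk8-1. MRU1 fell 7.80-fold and its neighbour AT5G35480 5.81-fold. AIG1, a gene induced by bacterial avirulence proteins, went from 5.86, 6.87 and 8.85 CPM to 1.22, 0.574 and 2.18 (log2 -2.42, or -3.03 without jazDcdk8-1 replicate 3).

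**Figure D5:**
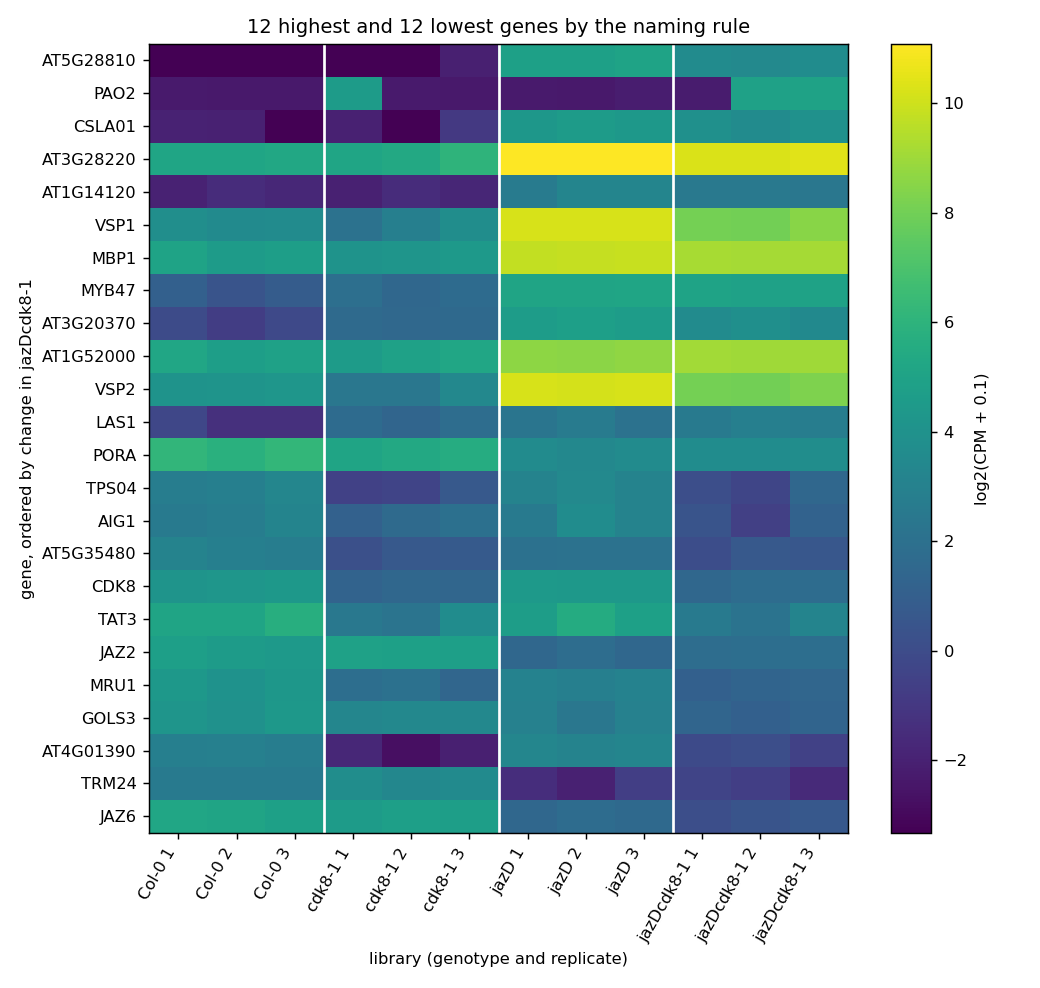
Heat map of log2(CPM + 0.1) in each of the 12 libraries (columns, by genotype and replicate) for the 12 highest and 12 lowest genes of the naming rule (rows, ordered by their change in jazDcdk8-1). Most of the high genes are high in jazD as well, the low genes TAT3, TPS04 and AT4G01390 are low in cdk8-1 as well, and PAO2 differs among libraries of one genotype.

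PAO2, a polyamine oxidase gene that the naming rule also picked, cannot be read on its own. It had 2 counts in each Col-0 library and 2, 632 and 683 in jazDcdk8-1, and it overlaps AT2G43018, whose counts were 1155, 769 and 807 in the same mutant libraries. The pair together had 48.2 ± 2.05 CPM in Col-0, 31.1 ± 1.18 in cdk8-1, 111 ± 2.51 in jazD and 66.8 ± 2.34 in jazDcdk8-1, so the division of reads between both genes differed among libraries of one genotype. DESeq2 set no adjusted p for PAO2.

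The genes that changed 4-fold lay on all 5 chromosomes. Chromosome 3, with 19.7% of the tested genes, held 11 of the 109 that fell and 25 of the 111 that rose. Chromosome 5 from 17 to 24 Mb, an interval chosen from earlier results of jazD, holds 6.71% of the tested genes. It holds 13 of the 109 that fell 4-fold or more and 7 of the 111 that rose as much. The jazD mutations are also in jazDcdk8-1, so these counts are no independent sign of an excess there. In bins of equal length with at least 20 tested genes, the highest share changed 4-fold was 5.13%, on chromosome 2 from 6 to 7 Mb. The median bin had 1.03%, and the highest bin of the chromosome 5 interval, from 21 to 22 Mb, had 3.98%. MYC3, MYC5, AOS, ERF2, PDF1.2A, PDF1.2C, DFR, UGT79B1, MYB111, TSB1, CYP81F2, TCH4, BGAL4, CER3, TRM24, PORA and THI1 are in this interval. Without it 2890 genes were higher and 2857 lower.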

How the data were processed

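RNA of whole rosettes was sequenced in 12 libraries, 3 for each genotype. The deposited expected counts come from RSEM 1.2.25, per the file headers, and are not scaled between libraries, with 3.423% of values not whole. The deposited TPM values, scaled for gene length and depth, come from the same program, per the file headers. The genome was TAIR10, per the submitters' processing notes. The aligner, strand setting and annotation release are not given in the sources used here, so reads of overlapping genes on opposite strands cannot be told apart.

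Expected counts were rounded and tested in edgeR 4.0.16 (R 4.3.3) with TMM factors and filterByExpr, in 1 quasi-likelihood fit to the 12 libraries with genotype as its term. P-values were adjusted by Benjamini-Hochberg over 19059 genes, and called below 0.05. Standard errors come from the F statistic and are approximate. CPM use TMM-scaled library sizes. The fit was also run on simulated counts in which only a small share of genes changed. That run cannot speak to the choice of scaling or to uneven division of reads in these libraries. RefSeq TAIR10.1 named 32835 of the identifiers and 488 were not found there. Total counts ran from 17583467 to 21030374 per library. Correlations of log2 CPM ran from 0.99 to 0.9925 within a genotype and from 0.971 to 0.9732 between Col-0 and jazDcdk8-1, and no libraries of a genotype agreed within sampling noise.

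Genes were counted over 31 lists with 397 members. A further 17 entries were left out because their names are not in the reference. The members, lists and comparisons were chosen with earlier results of these data known. A rule set the named genes: CDK8 with its partners, the JAZ genes and 11 set genes whatever their call; up to 4 called members of each list at 1 CPM or more; the 12 top and 12 bottom called genes by log2 change at 5 CPM or more whose libraries do not overlap, and 6 of each outside the chromosome 5 interval; and the 8 greatest rises and falls in CPM. Other list members were named after their values were seen. Alternatives were RLE scaling, total counts, no filter, a filter of 1 CPM in 3 libraries, DESeq2 1.42.0, limma 3.58.1 on log2(TPM + 1) and log2(TPM + 0.1), the 2 genotypes alone, a replicate block, each library left out, and counts without the interval.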

Additional observations from a re-analysis of the deposited data

How the results depend on the processing

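The counts of higher and lower genes stayed within 1.5 times under every alternative, except that limma on log2(TPM + 1) gave 212 genes at least 2-fold higher and 169 at least 2-fold lower, against 369 and 521. That scale compresses the changes of low genes. DESeq2 called 5161 genes. With 1 library left out, higher genes numbered 2463 to 2774 and lower genes 2611 to 2746, and genes at least 2-fold higher 351 to 381 and lower 474 to 531. Same-numbered libraries of the 2 genotypes deviated with correlations of -0.0583, -0.02975 and -0.04373, and differently numbered ones with -0.02265 to 0.06576. Same-numbered libraries were thus not more alike, but 3 libraries for each genotype are too few to settle whether the numbers mark pairs. A replicate block gave 3016 higher and 2967 lower genes, 5906 of the 5983 called also without it. The aliphatic glucosinolate median was 0.0 with limma on log2(TPM + 1) and on log2(TPM + 0.1), and the clock median ran from -0.02 (without jazDcdk8-1 replicate 3) to 0.22 with 1 library left out, against 0.15. No other median that lay further from 0 than its replicate spread changed sign in the alternatives run. Sizes moved in more lists: 16 of the 31 medians moved by more than that spread with limma on log2(TPM + 1), 21 with log2(TPM + 0.1), 9 with total counts and 2 to 10 with 1 library left out; salicylic acid defense, at -0.39, was -0.22 and camalexin, at -0.28, was -0.15 with limma on log2(TPM + 1). The cause was not tested. Of 154 tested genes set by the naming rule, 140 had the same call in every alternative that gave a value. The exceptions were JAZ8, JAZ10, IAR3, CM1, EMB1144, PAD3, CYP71A12, PR2, SULTR4;2, TCH4, WRKY33, CYCA1;1, LHCB1.3 and LHB1B2. Genes named outside the rule that lost a call in some alternative were ASA2, FLM, MYC4, MYB51, NATA1, PDF1.2B, WRKY38, NIMIN1, CBF3, PRR5, PRR7, GI and RVE1. Some genes given above as not called gained a call. These were MYC5 with limma on log2(TPM + 1) (adjusted p = 0.0328) and LOX3 with total counts (adjusted p = 0.0311) or without Col-0 replicate 2. NAC019 and ICS1 gained one with no filter (adjusted p = 0.0493 and 0.0333) or without jazDcdk8-1 replicate 1. ICS1 also did with the 2 genotypes alone, and CYP81F2 without jazDcdk8-1 replicate 1 (adjusted p = 0.0474). Depth limits the genes with a handful of counts, such as CER4, BHLH38 and CSLA01, whose fold changes are rough.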
